A study of Mus musculus with 16 samples.

Results

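Collagen chain genes were taken from the counts of left ventricular RNA as every gene whose symbol is Col, a number, the letter a and a number, with nothing after it. This gave 44 genes of the 55487 counted. The mid section of the left ventricle was sequenced in 16 C57Bl/6J mice aged 24 months. The multiparous group was 8 mice that had been pregnant more than 3 times, and the virgin group was 8 mice that had never bred; the labels name no treatment and no engineered allele in either group. The study asked what a history of pregnancies leaves in the heart of an old mouse. The names of the multiparous libraries carry the code MP in 4 cases (replicates 3, 4, 6 and 8) and P in the other 4, and all virgin names carry the code AA. The meaning of these codes is not given in the sources used here, so parity and a difference tied to the codes cannot be told apart.

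Collagens are proteins whose chains wind around each other into a rope-like helix. The fibrillar collagens form the cross-striated fibrils that tie heart muscle cells together and carry tension, type IV chains form the sheet-like network of the basement membrane around each muscle cell and capillary, and smaller classes sit on fibrils, link fibrils to basement membranes or span the cell membrane. In the heart, fibroblasts make most of the fibrillar chains, and endothelial and mural cells contribute to the basement membrane chains; excess fibrillar collagen is the textbook mark of fibrosis. By class, the 44 genes were 11 fibrillar, 6 of type IV, 6 of type VI, 3 of the type VIII and X networks, 9 of the fibril-associated group known as FACIT, 2 multiplexins, 1 anchoring fibril gene, 4 transmembrane genes and 2 others.

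Sequencing gave 34560606 to 58890976 gene counts per library, apart from virgin 8 with 228325238. A gene with no count in a library may still be present at up to 3 counts, which is 0.0134 to 0.0844 CPM by library (counts per 1000000 gene counts after scaling of the libraries; counting error only). Collagen genes took 0.147% (virgin 6) to 0.229% (multiparous 1) of the gene counts. Defining markers of heart muscle were present in every library, and their sum was 34337 to 39977 CPM in multiparous mice and 32156 to 43343 CPM in virgin libraries. The 6 liver markers summed to 297 CPM in multiparous 2, 247 CPM in multiparous 7 and 228 CPM in virgin 8. Elsewhere their sum was at most 63.7 CPM. Means were higher in multiparous hearts for 5 of the 6, with Alb the largest (63.3 CPM in multiparous, 4.54 CPM in virgin mice). Ttr alone went the other way, at 4.00 CPM in multiparous and 28.8 CPM in virgin mice. The sum is thus made up differently in the groups. The sum of 12 kidney markers was 0.617 to 14.7 CPM in multiparous mice and 3.54 to 94.0 CPM in virgin libraries, and all 12 had lower means in multiparous hearts. In RNA from whole tissue, fewer cells of a type and less RNA per cell cannot be told apart.

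No collagen chain gene differed between multiparous and virgin hearts at an adjusted p under 0.05 (edgeR quasi-likelihood test, adjusted over all 17813 genes tested, of which 2 passed, 0.0112%). Of the 44 genes, 34 had enough counts to be tested, and their log2 fold changes, multiparous minus virgin, ran from −0.72 for Col9a3 to 0.24 for Col13a1. Their median was −0.04, against −0.003 over all genes tested. Fold changes were above 0 for 9 genes (26.5%, beside 48.6% of all genes tested) and below 0 for 25 (73.5%, beside 51.4%). This lean was not shared by both codes. Against virgin hearts, the collagen median was −0.08 for the MP-coded libraries alone (−0.003 over all genes). For the P-coded libraries alone it was 0.016 (−0.008 over all genes). An unadjusted p under 0.05 was reached by 2 of the 34 (5.88%), none higher and both lower; over all genes tested the share was 8.12%, made of 4.04% higher and 4.09% lower. For 24 of the 34 the 95% interval of the log2 fold change lay within 0.5 either way, and for 30 within 1. No member had groups that did not overlap, which was the case for 0.0337% of all genes tested.

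**Figure D1:**
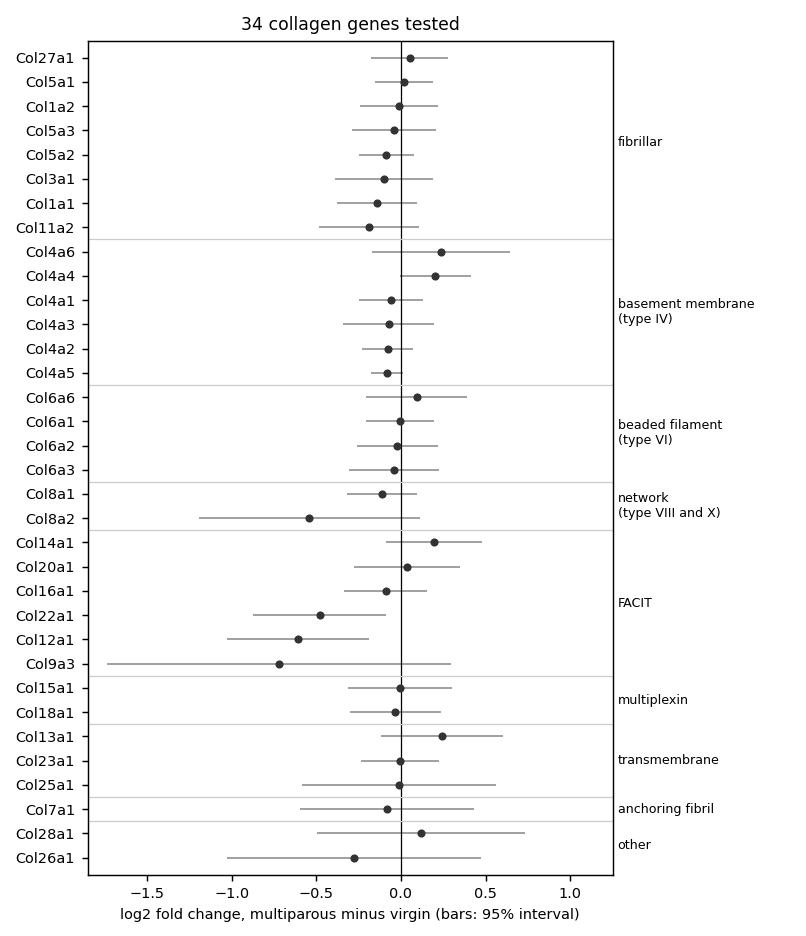
Log2 fold change of each of the 34 collagen genes tested, multiparous minus virgin, by class; points are edgeR estimates and bars 95% intervals. The intervals of Col12a1 and Col22a1 do not reach 0, and neither gene passed after adjustment over all genes.

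The promoters of 4 abundant chains are shown because they stand for both sides of the family. Col4a1 and Col4a2 start head to head at the same place, and their levels followed each other closely; Col1a2 and Col3a1 are interstitial fibril chains. Each is the RefSeq window of 300 bases around the gene start in GRCm38.p6, written from 5′ to 3′ on the gene's strand. Capitals mark matches to a CCAAT box (CCAAT or ATTGG), a GC box (GGGCGG or CCGCCC) or a TATA box (TATAAA or TTTATA).
Col1a2 (chr6:4505368-4505667, plus strand): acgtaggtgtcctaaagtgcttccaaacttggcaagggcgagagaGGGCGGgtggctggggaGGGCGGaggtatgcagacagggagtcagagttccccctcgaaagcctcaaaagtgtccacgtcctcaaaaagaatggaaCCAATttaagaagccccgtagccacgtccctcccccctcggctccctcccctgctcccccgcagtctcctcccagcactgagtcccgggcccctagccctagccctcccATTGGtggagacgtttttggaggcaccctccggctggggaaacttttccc
Col3a1 (chr1:45311288-45311587, plus strand): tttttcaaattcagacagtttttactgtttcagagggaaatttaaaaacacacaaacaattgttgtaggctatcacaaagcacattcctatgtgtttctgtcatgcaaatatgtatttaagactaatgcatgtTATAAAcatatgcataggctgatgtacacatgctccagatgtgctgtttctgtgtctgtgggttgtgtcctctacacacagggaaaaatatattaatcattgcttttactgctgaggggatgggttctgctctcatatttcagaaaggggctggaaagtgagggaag
Col4a1 (chr8:11312777-11313076, minus strand): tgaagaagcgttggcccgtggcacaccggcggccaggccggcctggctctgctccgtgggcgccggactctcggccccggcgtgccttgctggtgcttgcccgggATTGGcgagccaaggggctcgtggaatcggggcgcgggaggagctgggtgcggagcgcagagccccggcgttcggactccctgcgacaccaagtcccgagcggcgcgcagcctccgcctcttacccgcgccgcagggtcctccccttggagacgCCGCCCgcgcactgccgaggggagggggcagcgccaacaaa
Col4a2 (chr8:11312555-11312854, plus strand): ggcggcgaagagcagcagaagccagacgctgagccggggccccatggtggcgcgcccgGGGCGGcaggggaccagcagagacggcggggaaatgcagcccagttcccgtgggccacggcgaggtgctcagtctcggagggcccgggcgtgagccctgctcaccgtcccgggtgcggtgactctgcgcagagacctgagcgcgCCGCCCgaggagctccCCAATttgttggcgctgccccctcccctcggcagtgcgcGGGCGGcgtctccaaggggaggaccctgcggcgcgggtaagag
The Col1a2 window held 2 CCAAT and 2 GC boxes, and the Col3a1 window held 1 TATA box and neither of the others. The Col4a1 window had 1 CCAAT and 1 GC box and the Col4a2 window 1 and 3, with no TATA box in either, and these windows share 78 bases read on opposite strands. G and C made up 74.0% and 73.7% of the type IV windows, 61.0% of the Col1a2 window and 37.7% of the Col3a1 window. RefSeq windows were matched for 35 of the 44 genes. None was matched for Col1a1, Col2a1, Col4a3, Col5a2, Col9a3, Col12a1, Col14a1, Col22a1 and Col26a1. A CCAAT box was in 12 of the 35 (34.3%; 37.4% of 32851 promoters of all genes), a GC box in 22 (62.9%; 35.7% of all) and a TATA box in 5 (14.3%; 13.6% of all). The collagen shares use 1 window per gene and the shares of all use every window, expressed in the heart or not, so the sets are unlike. These matches describe the letters only.

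Levels per length are given as CPM per kb of exon, averaged over the 16 libraries. The length counts every base in any annotated exon of a gene. Ranks, class shares and the size of ratios between chains depend on it. Col1a1 and Col1a2 had mean CPM of 96.9 and 99.9, with 6563 exonic bases in Col1a1 and 12426 in Col1a2. By this measure Col4a1 (61.1) and Col4a2 (54.6) were the highest collagen chains and made up 45.6% of the summed collagen level. Col6a1 (20.03), Col15a1 (18.9), Col3a1 (18.4), Col1a1 (14.8) and Col6a2 (11.7) followed, and 18 of the 44 genes reached a level of 1. The summed level of all 44 genes was 249 ± 27.6 in multiparous mice and 258 ± 34.8 in virgin mice (SD, n = 8 each), a difference in mean log2 of −0.05 that is smaller than the spread between libraries. The type IV class took 48.8% of the sum in multiparous mice and 49.3% in virgin mice. Fibrillar chains took 22.6% of the multiparous sum, against 23.0% of the virgin sum, and type VI chains 15.8% of the multiparous sum, against 15.4% of the virgin sum. Multiplexins took 8.27% in multiparous and 8.01% in virgin mice, FACIT genes 2.55% in multiparous and 2.32% in virgin mice, and the type VIII and X networks 1.48% in multiparous and 1.57% in virgin mice. The ranges of the shares across libraries overlapped in every class.

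**Figure D2:**
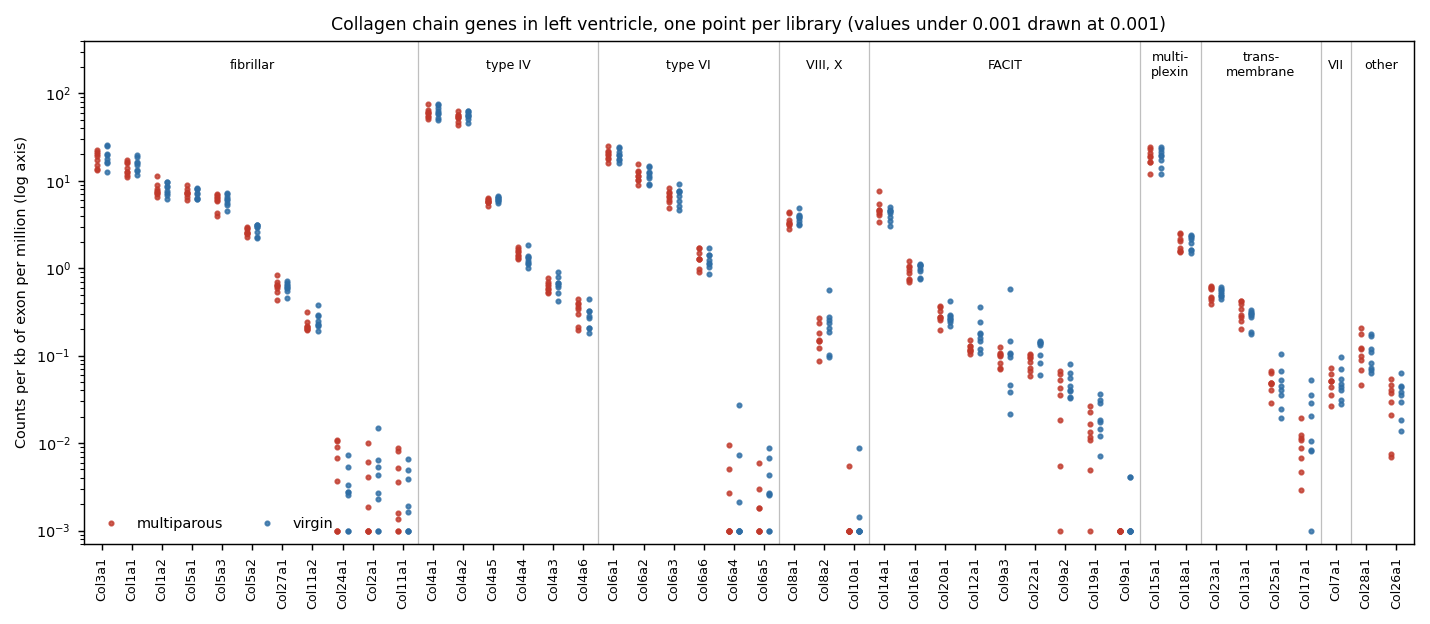
Level of all 44 collagen genes per library, in CPM per kb of exon on a log axis, with multiparous libraries (red) left of virgin libraries (blue); genes are ordered by mean level within each class, and values under 0.001 are drawn at 0.001. Levels span from about 61.1 for Col4a1 to 0.000516 for Col9a1, and the groups overlap for every gene.

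Among the fibrillar genes, 8 of 11 were tested, 2 with higher and 6 with lower means, and none passed. Col1a1, which encodes the main chain of the type I fibril, measured 72.9 to 114 CPM (median 88.2) in multiparous mice and 76.1 to 128 CPM (median 102) in virgin mice. Its log2 fold change was −0.14 (SE 0.11, edgeR adjusted p = 0.811), and the 95% interval in fold was 0.77 to 1.07. The highest library was virgin 8 and the lowest multiparous 3, with wide overlap between. Its partner Col1a2 had medians of 93.1 CPM in multiparous (range 80.4 to 140, the highest in multiparous 6) and 100.2 CPM in virgin mice (range 76.6 to 121), with a log2 fold change of −0.01 (edgeR adjusted p = 0.992). Col3a1, the chain of the finer type III fibrils, measured 132 to 219.8 CPM (median 178) in multiparous mice and 124 to 249 CPM (median 184) in virgin mice. Its log2 fold change was −0.10 (edgeR adjusted p = 0.906), with a 95% interval in fold of 0.763 to 1.14. The 3 type V chains, which seed fibrils and limit their width, had log2 fold changes of 0.02 (Col5a1), −0.09 (Col5a2) and −0.04 (Col5a3). Col27a1 and Col11a2 were low, at mean levels of 0.615 and 0.242 per kb, with log2 fold changes of 0.05 and −0.19.

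None of the 6 type IV genes passed; 2 means were above and 4 below those of virgin mice. Col4a1 and Col4a2 encode the chains found in nearly every basement membrane. Col4a1 measured 382 to 566 CPM (median 441) in multiparous mice and 374 to 559 CPM (median 457) in virgin mice, with a log2 fold change of −0.06 (edgeR adjusted p = 0.922) and a 95% interval in fold of 0.844 to 1.09. Col4a2 measured 292 to 412 CPM (median 353) in multiparous mice and 302 to 421 CPM (median 371) in virgin mice, with a log2 fold change of −0.08 (edgeR adjusted p = 0.836). Col4a3, Col4a4 and Col4a5 encode the chains of a second basement membrane network, known best from the kidney filter. Col4a4 measured 13.6 to 18.4 CPM (median 15.8) in multiparous mice and 10.8 to 19.4 CPM (median 13.4) in virgin mice, and all 8 multiparous libraries lay above the virgin median. The log2 fold change came to 0.20 (SE 0.10, unadjusted p = 0.057, edgeR adjusted p = 0.634), and virgin 7 held the highest value of all 16. Col4a5 measured 34.7 to 42.5 CPM (median 39.0) in multiparous mice and 37.5 to 45.5 CPM (median 41.8) in virgin mice (log2 fold change −0.08, SE 0.05, edgeR adjusted p = 0.698) and varied least of all collagen genes, with a coefficient of variation of 6.23% in multiparous mice and 6.44% in virgin mice. Col4a3 had a log2 fold change of −0.07, and Col4a6, whose product joins Col4a5 chains in other basement membranes, one of 0.24 (edgeR adjusted p = 0.817). The kidney markers with lower multiparous means include the filter gene Nphs1, with a mean of 0.00894 CPM in multiparous and 0.0664 CPM in virgin mice. Both means lie under the highest floor of 0.0844 CPM. Of the 12 kidney markers, Lrp2 and Kap had the highest virgin means. Lrp2 averaged 3.23 CPM in multiparous and 21.7 CPM in virgin mice, and Kap 0.772 CPM in multiparous and 8.40 CPM in virgin mice. With the kidney sum as a covariate the log2 fold change of Col4a4 was 0.10. That sum differed between the groups, with a median of 3.7 CPM in multiparous and 42.5 CPM in virgin mice. In this fit its part and that of parity cannot be told apart, and the part of kidney RNA was not tested.

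Type VI chains form beaded filaments next to basement membranes. The main chains Col6a1, Col6a2 and Col6a3 had log2 fold changes of −0.01, −0.02 and −0.04. Col6a1 measured 69.8 to 111 CPM (median 87.1) in multiparous mice and 70.0 to 107 CPM (median 86.8) in virgin mice, and its 95% interval in fold was 0.867 to 1.14. Col6a2 had medians of 94.8 CPM (range 74.9 to 129) in multiparous mice and 99.2 CPM (range 75.03 to 122) in virgin mice. Col6a3 had medians of 79.1 CPM (range 58.5 to 98.8) in multiparous and 85.2 CPM (range 54.9 to 109) in virgin mice. The groups overlapped in each. Col6a6 measured 12.2 ± 2.7 CPM in multiparous mice and 11.4 ± 2.5 CPM in virgin mice (SD, n = 8 each), and Col6a4 and Col6a5 were too low to test.

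The FACIT class, which decorates fibrils without forming them, held the 2 genes with an unadjusted p under 0.05. Col12a1, whose product binds the surface of type I fibrils in tissue under tension, measured 1.603 to 2.33 CPM (median 1.81) in multiparous mice and 1.65 to 5.51 CPM (median 2.56) in virgin mice. All 8 multiparous libraries lay below the virgin median, and 5 virgin libraries lay above the highest multiparous one. The log2 fold change came to −0.61 (SE 0.20, 95% interval −1.03 to −0.19, unadjusted p = 0.00685, edgeR adjusted p = 0.352), so the gene did not pass. Virgin hearts varied more, with a coefficient of variation of 12.0% in multiparous and 43.6% in virgin mice; the highest were virgin 1 (5.51 CPM) and virgin 7 (3.69 CPM). Without virgin 1 the log2 fold change was −0.40, and with the kidney sum as a covariate it was −0.24. The kidney sum differed between the groups, so its part and that of parity cannot be told apart in the covariate fit. The MP-coded and P-coded libraries gave the same value against virgin hearts, −0.61 each. Virgin 1 also had the lowest sum of heart muscle markers (32156 CPM) and a kidney sum of 86.7 CPM; the part of these in the Col12a1 value was not tested.

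Col22a1, known from tissue junctions such as that of muscle with tendon, measured 0.534 to 0.960 CPM (median 0.820) in multiparous mice and 0.557 to 1.37 CPM (median 1.248) in virgin mice. Again all 8 multiparous libraries lay below the virgin median and 5 virgin libraries above the highest multiparous one. The log2 fold change came to −0.48 (SE 0.19, 95% interval −0.87 to −0.09, unadjusted p = 0.0188, edgeR adjusted p = 0.491). Col14a1, a fibril-surface collagen and the most abundant of the class, went the other way in the means, at 23.5 to 53.1 CPM (median 31.8) in multiparous mice and 21.1 to 35.1 CPM (median 31.2) in virgin mice. Its log2 fold change of 0.20 (edgeR adjusted p = 0.776) was 0.07 without multiparous 6, the library at 53.1 CPM. Col16a1 measured 4.66 to 8.11 CPM (median 6.202) in multiparous mice and 5.14 to 7.46 CPM (median 6.85) in virgin mice, and Col20a1 measured 1.001 to 1.92 CPM (median 1.42) in multiparous and 1.11 to 2.19 CPM (median 1.38) in virgin mice. Col9a3, of cartilage fibrils, measured 0.274 to 0.479 CPM in multiparous mice and 0.0834 to 2.202 CPM in virgin mice, with a median of 0.384 CPM in multiparous and 0.387 CPM in virgin mice. Its log2 fold change of −0.72 (SE 0.48, edgeR adjusted p = 0.771) rested on virgin 8 at 2.202 CPM and was 0.24 without it. Virgin 8 is the library with the deepest sequencing, and its liver marker sum was 228 CPM. Ttr was the largest part of the virgin liver marker means (28.8 CPM), and Alb averaged 4.54 CPM in virgin mice. Counts of Col9a3 are uncertain, since 234 of its 3853 exonic bases lie opposite Tcfl5.

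**Figure D3:**
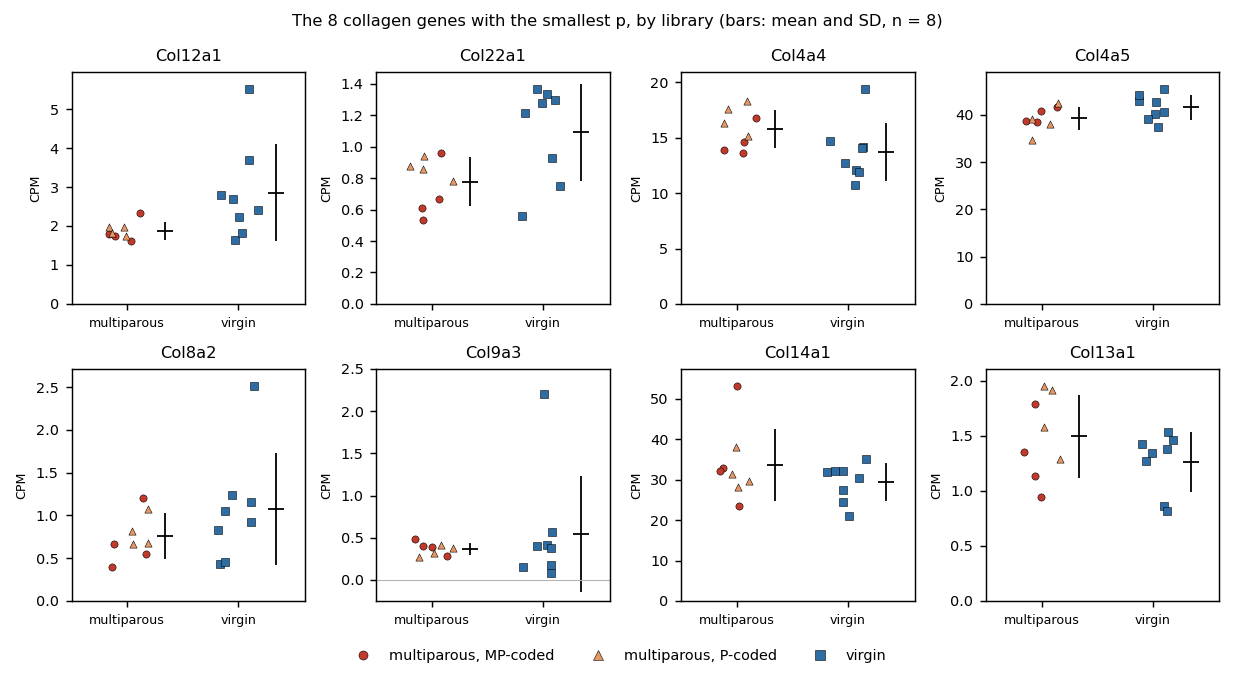
CPM per library of the 8 collagen genes with the smallest unadjusted p, with multiparous libraries (circles MP-coded, triangles P-coded) left of virgin libraries (squares) and the mean and SD of 8 beside each group. Virgin libraries spread from 1.65 to 5.51 CPM for Col12a1, while the multiparous ones lie between 1.603 and 2.33 CPM; virgin 8 stands alone for Col8a2 and Col9a3.

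In the type VIII and X network class, Col8a1, of vessel walls, measured 22.2 to 34.6 CPM (median 25.8) in multiparous mice and 24.6 to 38.6 CPM (median 29.6) in virgin mice (log2 fold change −0.11, edgeR adjusted p = 0.83). Its partner Col8a2 measured 0.394 to 1.21 CPM (median 0.671) in multiparous mice and 0.436 to 2.51 CPM (median 0.987) in virgin mice, with a log2 fold change of −0.54 (SE 0.31, edgeR adjusted p = 0.712) that was −0.20 without virgin 8. Col10a1, of growth plate cartilage, had 3 counts in all 16 libraries together. The multiplexins lie beside the basement membranes of muscle fibres and capillaries. Col15a1 measured 75.6 to 155 CPM (median 121) in multiparous mice and 75.4 to 156 CPM (median 124) in virgin mice, with a log2 fold change of −0.01 (SE 0.15, edgeR adjusted p = 0.997) and a 95% interval in fold of 0.804 to 1.23. Col18a1, the precursor of endostatin, measured 10.7 to 17.6 CPM (median 13.1) in multiparous mice and 10.4 to 16.9 CPM (median 14.4) in virgin mice, a log2 fold change of −0.03.

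Transmembrane and other collagens were rare transcripts. Col13a1, a membrane collagen of nerve-muscle junctions, measured 0.940 to 1.95 CPM (median 1.46) in multiparous mice and 0.817 to 1.53 CPM (median 1.36) in virgin mice, with a log2 fold change of 0.24 (SE 0.17, edgeR adjusted p = 0.785). This was 0.04 for the MP-coded and 0.41 for the P-coded libraries alone against virgin hearts. Col23a1 had medians of 3.02 CPM (range 2.22 to 3.60) in multiparous mice and 2.98 CPM (range 2.53 to 3.51) in virgin mice, and Col25a1 medians of 0.633 CPM (range 0.374 to 0.865) in multiparous and 0.557 CPM (range 0.251 to 1.35) in virgin mice. Both encode membrane-spanning collagens. Col7a1, of the anchoring fibrils of skin, had medians of 0.525 CPM (range 0.274 to 0.736) in multiparous and 0.466 CPM (range 0.291 to 0.981) in virgin mice, with a log2 fold change of −0.08. Col28a1 had medians of 0.532 CPM (range 0.225 to 1.02) in multiparous and 0.473 CPM (range 0.313 to 0.859) in virgin mice, and Col26a1 medians of 0.273 CPM (range 0.0562 to 0.437) in multiparous and 0.303 CPM (range 0.111 to 0.524) in virgin mice. None of these 6 passed.

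The 10 genes not tested, Col2a1, Col6a4, Col6a5, Col9a1, Col9a2, Col10a1, Col11a1, Col17a1, Col19a1 and Col24a1, had 2 to 125 counts over all 16 libraries and at most 0.313 CPM in any. Col2a1, the main collagen of cartilage, had 30 counts in 10 libraries, and Col9a1 had 2 counts, both in virgin libraries. Of 9 cartilage and bone markers, 6 averaged under 0.1 CPM over all libraries. The sum of all 9 was 6.71 to 10.9 CPM in multiparous mice and 5.81 to 9.96 CPM in virgin mice, and most of it was Sox9, with a mean of 7.44 CPM in multiparous and 6.67 CPM in virgin mice.

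Ratios between chains within a library do not depend on how libraries are scaled, and 8 were compared between the groups with an exact two-sided permutation test over all assignments of 16 libraries to 2 groups of 8. None differed after Benjamini-Hochberg adjustment over the 8. The ratios use levels per kb, so their size depends on the exon lengths, which are the same in both groups. The smallest p was that of Col1a1 to Col1a2, with a median of 1.73 (range 1.54 to 2.12) in multiparous mice and 1.93 (range 1.68 to 2.21) in virgin mice, a difference in mean log2 of −0.12 (exact permutation p = 0.0962, adjusted p = 0.77). Col3a1 to Col1a1 had medians of 1.31 in multiparous and 1.26 in virgin mice (exact permutation p = 0.524, adjusted p = 0.823). Col4a2 to Col4a1 had medians of 0.893 in multiparous and 0.905 in virgin mice (exact permutation p = 0.456, adjusted p = 0.823). The ratio of Col4a2 to Col4a1 was 0.821 to 0.941 in multiparous mice and 0.847 to 0.966 in virgin libraries, so Col4a1 lay above Col4a2 in every library. The other 5 ratios, Col6a2 and Col6a3 to Col6a1, Col5a2 to Col5a1, Col8a2 to Col8a1 and Col15a1 to Col18a1, had the same adjusted p of 0.823. Another 4 ratios, among the type IV chains Col4a3, Col4a4, Col4a5 and Col4a6, were looked at after the values were seen and carry no test. Col4a4 to Col4a3 was 2.21 to 2.64 (median 2.39) in multiparous mice and 1.44 to 2.39 (median 2.02) in virgin mice, with all 8 multiparous libraries above the virgin median. Col4a4 to Col4a5 had a median of 0.269 in multiparous and 0.206 in virgin mice, again with 8 multiparous libraries above the virgin median. Col4a3 to Col4a5 had a median of 0.11 in multiparous and 0.102 in virgin mice, with 5 multiparous libraries above the virgin median, and Col4a6 to Col4a5 one of 0.0615 in multiparous and 0.0446 in virgin mice, with 6 above. Col4a3 counts are uncertain, since 563 of its 9967 exonic bases lie opposite C430014B12Rik.

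**Figure D4:**
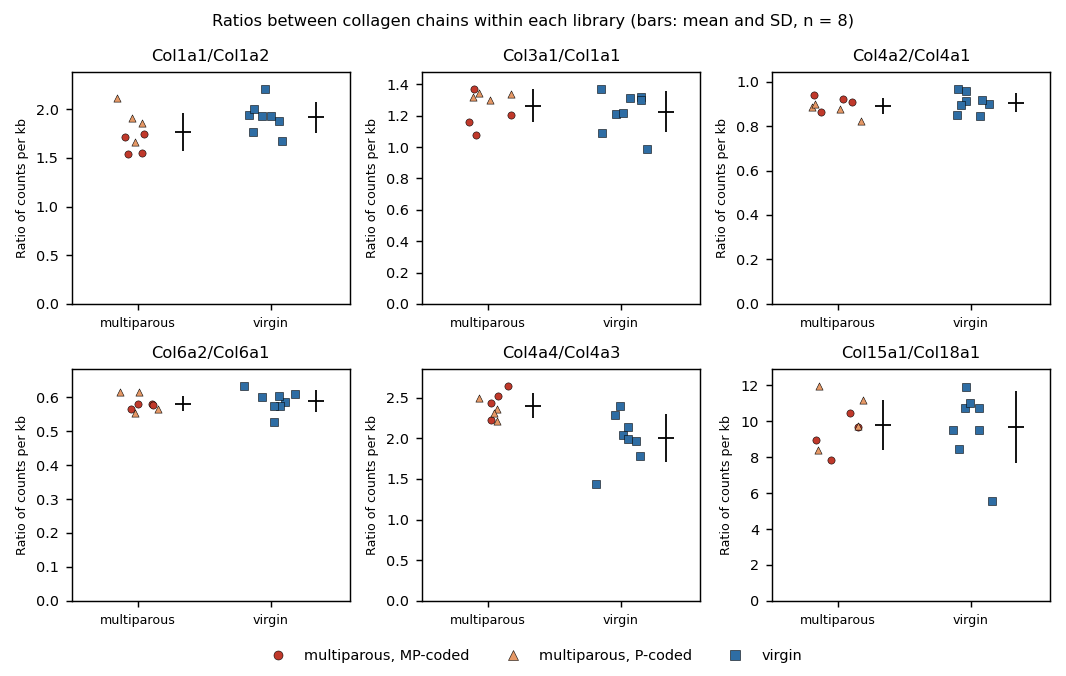
Ratio of per-kb levels of 6 pairs of collagen chains in each library, with multiparous libraries (circles MP-coded, triangles P-coded) left of virgin libraries (squares) and the mean and SD of 8 beside each group; axes start at 0. The groups overlap in all pairs, and the multiparous ratios of Col4a4 to Col4a3 lie between 2.21 and 2.64, where the virgin ones lie between 1.44 and 2.39.

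Levels were set side by side across hearts for 6 chosen pairs of 7 of the chains, 5 of the pairs with Col1a1; other pairs were not examined. With the group means removed, log2 CPM of Col4a1 and Col4a2 had a Pearson r of 0.953 and a Spearman rho of 0.985 over the 16 libraries (permutation p = 1e-05 for both, the smallest that 100000 permutations can give; adjusted over 6 pairs 6e-05 for both). Within multiparous hearts r was 0.942 and within virgin mice 0.968, and without the 2 libraries farthest from the median of Col4a1 it was 0.934. These genes lie on chromosome 8 on opposite strands and overlap by 22 bases at their starts. The part of this position in their r was not tested. Col1a1 and Col3a1 had r of 0.896 and rho of 0.856 (permutation p = 2e-05 and 5e-05, adjusted 6e-05 and 0.00015), with 0.904 within multiparous mice and 0.891 within virgin mice and 0.845 without the 2 farthest libraries. Col1a1 also varied with Col15a1 (r = 0.812, rho = 0.797, permutation p = 0.00014 and 0.00047, adjusted 0.00028 and 0.00094; 0.779 without the 2 farthest) and with Col6a3 (r = 0.773, rho = 0.756, permutation p = 5e-04 and 0.00112, adjusted 0.00075 and 0.00168; 0.738 without them). For Col15a1 the within-group r was 0.774 in multiparous mice and 0.844 in virgin mice, and for Col6a3 it was 0.867 in multiparous and 0.720 in virgin mice. With Col8a1 the values were lower (r = 0.637, rho = 0.694, permutation p = 0.00794 and 0.00381, adjusted 0.00953 and 0.00457; 0.666 without them; 0.710 within multiparous mice and 0.568 within virgin mice). Col1a1 and Col4a1, of the fibril and the basement membrane, had the lowest r of the 6 pairs, 0.559, with rho of 0.541 (permutation p = 0.0257 and 0.0325, adjusted the same), 0.382 within multiparous mice and 0.699 within virgin mice. Without the 2 farthest libraries r was 0.468, and it no longer reached an adjusted p under 0.05 without multiparous 1, virgin 1, virgin 4 or virgin 6. Genes of 1 library share its depth and its cell makeup, and the codes hold too few libraries for values of their own.

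**Figure D5:**
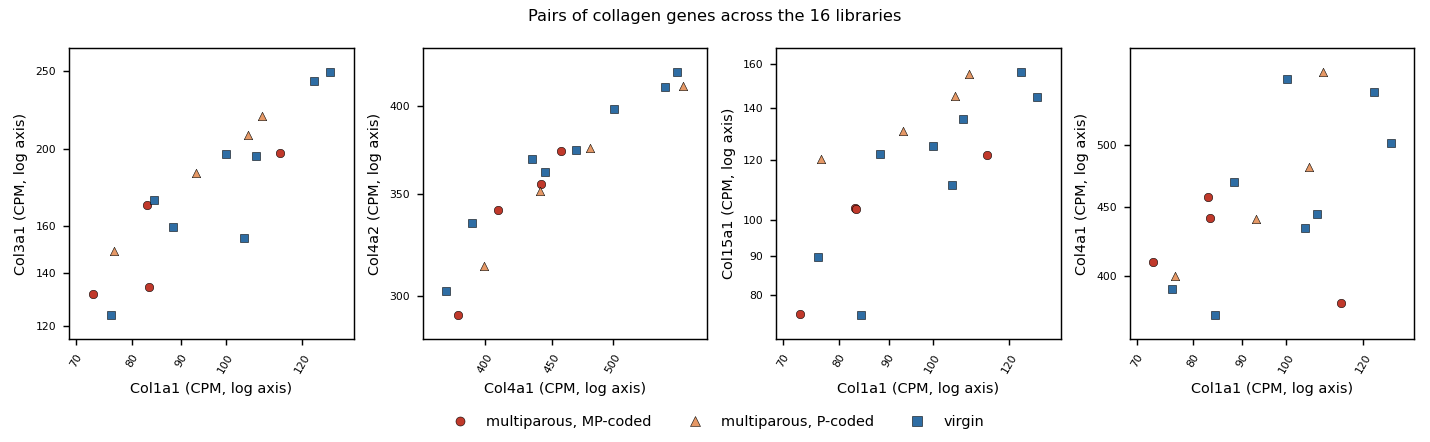
CPM of 4 pairs of collagen genes in the 16 libraries on log axes, with MP-coded (circles) and P-coded (triangles) multiparous libraries and virgin libraries (squares). Points of Col4a1 with Col4a2 and of Col1a1 with Col3a1 fall near a line in both groups (r = 0.953 and 0.896), and those of Col1a1 with Col4a1 scatter widely (r = 0.559).

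Genes that act on collagens were read from the same fit in 6 lists of 90 genes, 88 of them tested. No gene of any list passed, 8 of the 88 had an unadjusted p under 0.05 with a higher mean (9.09%, beside 4.04% of all genes tested) and 1 with a lower one (1.14%, beside 4.09%), and the list medians of the log2 fold change ran from −0.003 to 0.07. Among 20 tested genes of chain modification and folding (11 higher and 9 lower means, median 0.009), P3h4, a partner of lysyl hydroxylase, measured 17.1 ± 1.4 CPM in multiparous mice and 15.2 ± 1.6 CPM in virgin mice (SD, n = 8 each, edgeR adjusted p = 0.49). Fkbp10, a collagen chaperone, averaged 17.9 CPM in multiparous and 16.3 CPM in virgin mice, and Crtap, of the prolyl 3-hydroxylation complex, 23.7 CPM in multiparous and 22.3 CPM in virgin mice. Among 14 genes of propeptide removal and crosslinking (7 higher and 7 lower, median −0.003), Pcolce2, which enhances the cutting of procollagen, had the smallest p of all 6 lists. It measured 18.0 ± 1.9 CPM in multiparous mice and 15.03 ± 1.1 CPM in virgin mice, with a log2 fold change of 0.26 (SE 0.07, unadjusted p = 0.000863, edgeR adjusted p = 0.175). Of the other genes in this list, Tll2 averaged 0.648 CPM in multiparous and 0.827 CPM in virgin mice, and Adamts14 1.29 CPM in multiparous and 1.44 CPM in virgin mice.

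In the list of fibril-binding proteoglycans (9 tested, 6 higher and 3 lower, median 0.07), Dcn, or decorin, which binds type I fibrils, measured 383 ± 40 CPM in multiparous mice and 335 ± 29 CPM in virgin mice (SD, n = 8 each, log2 fold change 0.19, edgeR adjusted p = 0.376). Podn, or podocan, averaged 12.7 CPM in multiparous and 10.9 CPM in virgin mice, and Fmod, or fibromodulin, 2.13 CPM in multiparous and 2.76 CPM in virgin mice. Of 12 collagen receptors (8 higher and 4 lower, median 0.06), Ddr2, the discoidin receptor of fibroblasts, averaged 58.0 CPM in multiparous and 52.6 CPM in virgin mice (edgeR adjusted p = 0.542). Its relative Ddr1 averaged 22.2 CPM in multiparous and 24.2 CPM in virgin mice, and the integrin chain Itga11 6.83 CPM in multiparous and 6.01 CPM in virgin mice. Of 16 genes of collagen breakdown and its inhibitors (9 higher and 7 lower, median 0.03), the inhibitor Timp2 averaged 118 CPM in multiparous and 101 CPM in virgin mice (edgeR adjusted p = 0.482). The protease Ctsk averaged 3.89 CPM in multiparous and 3.15 CPM in virgin mice, and the inhibitor Reck 10.6 CPM in multiparous and 9.42 CPM in virgin mice. Of 17 TGF-beta pathway genes (10 higher and 7 lower, median 0.03), Thbs1, an activator of latent TGF-beta, averaged 22.2 CPM in multiparous and 30.3 CPM in virgin mice (log2 fold change −0.45, edgeR adjusted p = 0.393). The co-receptor Tgfbr3 averaged 105 CPM in multiparous and 94.4 CPM in virgin mice, and the inhibitory Smad6 16.04 CPM in multiparous and 13.6 CPM in virgin mice.

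Fibroblast markers had higher means in multiparous hearts for 8 of 8 genes, none past the threshold. Over all genes tested, 48.6% had a log2 fold change above 0. Higher means were also found for 6 of 6 macrophage and 5 of 5 endocardial markers, 3 of 6 endothelial and 0 of 5 heart muscle markers. The fibroblast sum was 1483 to 2211 CPM in multiparous mice and 1367 to 1873 CPM in virgin libraries. Its largest part was Gsn, with a mean of 1013 CPM in multiparous and 781 CPM in virgin mice. Dcn and Ddr2 belong to the fibroblast list too. The activated fibroblast markers summed to 115 to 225 CPM in multiparous mice and 118 to 240 CPM in virgin libraries, with 2 of 6 means higher and 4 lower. Endothelial markers summed to 1051 to 1197 CPM in multiparous and 959 to 1191 CPM in virgin libraries. The part of these sums in the collagen values was not tested.

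Within the multiparous group, MP-coded and P-coded libraries were compared in the same way, and 0 of the 34 collagen genes tested passed (edgeR, adjusted over 18123 genes, of which 22 passed, 0.121%). An unadjusted p under 0.05 was reached by 7 of 34 (20.6%, beside 11.0% of all genes tested), 2 of them higher in MP-coded hearts (5.88%, beside 5.93%) and 5 lower (14.7%, beside 5.07%). No member had groups that did not overlap, which was the case for 5.88% of all genes. The median log2 fold change, MP minus P, was −0.14 over the 34 and 0.002 over all genes, with 12 above 0 (35.3%, beside 50.6% of all genes) and 22 below (64.7%, beside 49.4%). Col15a1 had the smallest p. It measured 75.6, 104, 121.5 and 104 CPM in the MP-coded libraries of multiparous 3, 4, 6 and 8, and 155, 145, 120.3 and 131 CPM in the P-coded libraries of multiparous 1, 2, 5 and 7. Only multiparous 6 lay above the lowest P-coded library. The log2 fold change was −0.44 (SE 0.13, 95% interval −0.72 to −0.17, unadjusted p = 0.00462, edgeR adjusted p = 0.221). DESeq2 on the same genes called it (adjusted p = 0.029), as did edgeR with all genes of any count (adjusted p = 0.0365). The virgin mean of 119.9 CPM lay between the MP-coded mean (101 CPM) and the P-coded mean (138 CPM), but the virgin libraries ran from 75.4 to 156 CPM and so spanned both codes.

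Col6a3 measured 58.5, 67.7, 86.6 and 72.1 CPM in the MP-coded and 98.8, 89.4, 77.8 and 80.4 CPM in the P-coded libraries, in the same order (log2 fold change −0.28, SE 0.11, edgeR adjusted p = 0.388). Col4a3 measured 5.21, 6.26, 5.37 and 5.74 CPM in the MP-coded and 7.01, 5.70, 7.80 and 6.66 CPM in the P-coded libraries (log2 fold change −0.27, SE 0.11, edgeR adjusted p = 0.403). Col20a1 was higher in its MP-coded mean, at 1.42, 1.66, 1.92 and 1.86 CPM in the MP-coded and 1.001, 1.31, 1.42 and 1.39 CPM in the P-coded libraries (log2 fold change 0.42, SE 0.18, edgeR adjusted p = 0.411). The MP-coded and P-coded ranges overlapped in each. The other 3 genes with an unadjusted p under 0.05 were Col7a1 (log2 fold change 0.59), Col4a4 (−0.19) and Col5a3 (−0.32). Liver markers summed to 5.13 to 33.9 CPM in MP-coded and 3.84 to 297 CPM in P-coded libraries, and kidney markers to 5.06 to 14.7 CPM in MP-coded and 0.617 to 2.41 CPM in P-coded libraries; the part of either in these values was not tested.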

How the data were processed

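Per the labels' protocols, hearts were perfused with cold PBS and frozen, RNA was isolated with RNeasy columns, and stranded total RNA libraries with ribosomal RNA removed were read as paired ends on a NovaSeq X. The authors deposited raw counts per gene for every library. The submitters' processing notes name the aligner STAR 2.7.11b and the counter HTSeq 0.11.1, with read trimming by Trim Galore 0.6.10 and cutadapt 4.8, and the build GRCm38.p6. The strand setting of the counting is not given in the sources used here, nor is the annotation release. Rows that name no gene, 26.5% to 33.1% of reads, stayed out of library sizes. Gene coordinates and exon lengths come from GENCODE M21 of GRCm38, which holds 99.53% of the gene identifiers.

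The test was edgeR 4.0.16 in R 4.3.3 (TMM factors, filterByExpr, quasi-likelihood F-test on group alone, Benjamini-Hochberg over all genes tested, threshold 0.05), also tested on simulated data. CPM use TMM-scaled totals. The members, classes, lists and tests were chosen with earlier results of these data known. Values are given for the 3 highest genes per class, the 8 with the smallest p between multiparous and virgin mice, the 4 with the smallest p between the codes, and the 3 with the smallest p in each list. Alternatives used DESeq2 1.42.0, limma voom (limma 3.58.1), other factors and filters, each code alone, a kidney covariate, a replicate block, and each library left out. Every within-group pair of libraries differed by more than sampling noise (chi-square per degree of freedom of at least 9.67 over 56 pairs). Separate animals are implied by the numbers of mice only, and p-values describe the spread among these 16 libraries. Floors cover counting error only.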

Additional observations from a re-analysis of the deposited data

Results flagged for a closer look

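Of 102 groups of 8 values checked, 5 genes and 2 ratios had a library whose gap to the nearest other value was large for the group's range. Chance flags about 1 group in 20, and these were 7. Col4a4 was 19.4 CPM in virgin 7, with the next virgin library at 14.7 CPM. Col20a1 was 2.19 CPM in virgin 7, with the next at 1.503 CPM. Col8a2 was 2.51 CPM in virgin 8 (next 1.24 CPM), and the ratio of Col8a2 to Col8a1 there was 0.143 (next 0.0798). Col9a3 was 2.202 CPM in virgin 8 (next 0.564 CPM). Col11a2, a fibrillar chain of cartilage, was 2.19 CPM in multiparous 4 (next 1.66 CPM). The ratio of Col5a2 to Col5a1 was 0.498 in virgin 1 (next 0.416).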

How the results depend on the processing

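No collagen gene passed between multiparous and virgin hearts in any of 28 alternatives, and no chain ratio crossed its threshold in the 19 alternatives run for the ratios. The number of all genes called, 2 as reported, was 0 with no factors, 0 for the MP-coded libraries alone, 97 for the P-coded libraries alone, 0 with the kidney covariate, 130 with DESeq2, 56 with all genes of any count, and 0 to 55 with 1 library left out. It was also 0 without multiparous 2, multiparous 7 and virgin 8, the libraries with the highest liver marker sums, an alternative chosen after seeing the data. With the replicate number as a block, 33 genes and no collagen gene passed; same-numbered libraries had a correlation over 0.1 in 2 of 8 cases and matched best in 1 of 8, so the numbers were not taken as pairs. Between the codes, 22 genes were called as reported, 7 with no factors, 13 with limma voom, 295 with DESeq2, 389 with all genes of any count, and 3 to 197 with 1 library left out; 1 collagen gene, Col15a1, passed with DESeq2 and 1 with all genes of any count. Of the 6 lists, DESeq2 called Pcolce2 between multiparous and virgin hearts; between the codes, DESeq2 and edgeR with all genes of any count each called Timp3, Pxdn, Smad7, Tmem38b and Mmp3, and Mmp14 and Pxdn were called without multiparous 5. The r of Col1a1 with Col4a1 was 0.481 to 0.764 with 1 library left out. The direction of small differences turned in 11 of 28 alternatives for Col1a2 and in 10 each for Col15a1 and Col6a1, and in none for Col12a1, Col4a4 or Col1a1. The causes were not tested. The 10 genes with at most 125 counts in all were too low to test.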
